A study of Rattus norvegicus with 24 samples.

Results

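Myosin heavy chain is the motor protein of the thick filament, and the isoform a fibre makes largely sets how fast it shortens. The 8 genes described here, Myh1, Myh2, Myh3, Myh4, Myh6, Myh7, Myh7b and Myh8, were chosen by symbol, and each matched 1 of the 14243 distinct rows of the table. In adult rat limb muscle Myh4 (type IIb), Myh1 (IIx) and Myh2 (IIa) are the fast isoforms and Myh7 is the slow isoform of type I fibres. Myh3 (embryonic) and Myh8 (perinatal) belong to developing and regenerating fibres, Myh6 is the alpha cardiac isoform, and Myh7b is an ancient slow-type relative. Innervation and the pattern of nerve activity are known to influence which of them a fibre uses.

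The sequenced RNA came from pieces of the tibialis anterior (TA), a fast muscle of the lower leg, in aged (23 months) male Fischer 344 rats. In 9 animals tetrodotoxin (TTX), a sodium channel blocker, was pumped to a cuff on the left common peroneal nerve, and the right limb served as the contralateral control (9 limbs). Left TA was taken after 6 to 7 days of TTX (atrophy), after a further 9 days without TTX (recovery), or after another 5 to 6 days of TTX (repeated atrophy), with 3 limbs each. Another 3 animals, 1 for each time point, had the surgery without TTX and gave 3 sham left and 3 sham right limbs. All animals were aged. The control limbs come from the same animals as the treated limbs, so they share any systemic effect of the pump and of blocking 1 nerve. These are bulk samples of muscle tissue, in which fewer fibres of a type and less transcript per fibre cannot be told apart.

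Values are in CPM, counts scaled so that each limb sums to 1000000. The depth inferred from the smallest steps between low values ran from 18.9 to 30.9 in units of 1000000 reads. Markers of muscle fibres (5 of 5 present) summed to 55917 to 101471 CPM in control limbs (median 88711), with medians of 56824 in atrophy, 82325 in recovery and 62908 in repeated atrophy. The median sum was thus lower in the groups with lower summed myosin CPM, but the repeated atrophy sums (57349 to 68770) lay inside the control range. The markers did not move together. Mean CPM in control, atrophy and repeated atrophy was 37744, 20049 and 21303 for Acta1 and 28552, 14481 and 15624 for Ckm. It was 7679, 11107 and 15742 for Mb and 5259, 7301 and 6130 for Des. Of the 5 markers, 0 passed the threshold given next as lower, and 1 passed as higher in repeated atrophy (34.3% of all rows passed). The part of this sum in the results was not tested. A gene passed the threshold where its change reached 1.2-fold with an adjusted p (limma, Benjamini-Hochberg over all 14031 rows tested) no higher than 0.05. The left limb of atrophy animal 2 stood apart. Its Myh1, Myh3, Myh4, Myh7b and Myh8 lay inside the control range while the other 2 atrophy limbs lay outside that range for Myh1, Myh2, Myh3, Myh4 and Myh8, and the atrophy log2 fold changes of Myh2, Myh3, Myh4, Myh6, Myh7 and Myh8 are also given without it. The animal was singled out by its values for these genes, so what is given without it is a description and supports no call. CPM values are relative to the whole library: the median row changed by 0.22 (log2) in atrophy, 0.02 in recovery and 0.20 in repeated atrophy against control, and of the rows past the threshold 2844 were higher and 327 lower in atrophy and 3936 higher and 876 lower in repeated atrophy. After rescaling on the trimmed mean of log ratios these became 663 and 695, and 1843 and 1695. Shares of the 8 genes do not depend on multiplying a library by 1 factor.

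The 3 adult fast genes lie side by side with Myh3 and Myh8 in 1 cluster on chromosome 10 of rn7, all on the plus strand. Myh3 spans 51770177 to 51793993, Myh2 51856738 to 51883237, Myh1 51885913 to 51909700, Myh4 51923359 to 51946298 and Myh8 51963510 to 51993104. Myh6 (28418120 to 28441721) and Myh7 (28446550 to 28468218) are neighbours on the minus strand of chromosome 15, and Myh7b lies on chromosome 3 (144098190 to 144121952). The gene models are 5923 to 6097 bases long, and mean CPM and mean CPM per kilobase ranked the genes alike in control limbs.

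Because Myh2, Myh1 and Myh4 took the largest and most variable shares of the myosin transcripts, the 250 bases before the RefSeq start of each are shown. They are from GRCr8, plus strand, at chr10:52355489-52355738 for Myh2, chr10:52384662-52384911 for Myh1 and chr10:52421898-52422147 for Myh4. Capitals mark every run of at least 8 bases present in all 3.
Myh2: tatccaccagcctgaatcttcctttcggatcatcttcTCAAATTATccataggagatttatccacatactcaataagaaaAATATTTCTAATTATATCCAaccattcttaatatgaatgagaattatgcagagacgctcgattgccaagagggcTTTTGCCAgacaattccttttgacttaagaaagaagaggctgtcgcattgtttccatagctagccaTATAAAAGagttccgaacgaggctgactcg
Myh1: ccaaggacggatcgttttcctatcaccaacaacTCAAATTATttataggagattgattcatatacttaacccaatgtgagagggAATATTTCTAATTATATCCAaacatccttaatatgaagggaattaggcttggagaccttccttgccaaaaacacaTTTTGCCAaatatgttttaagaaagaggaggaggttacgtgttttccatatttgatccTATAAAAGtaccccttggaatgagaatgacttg
Myh4: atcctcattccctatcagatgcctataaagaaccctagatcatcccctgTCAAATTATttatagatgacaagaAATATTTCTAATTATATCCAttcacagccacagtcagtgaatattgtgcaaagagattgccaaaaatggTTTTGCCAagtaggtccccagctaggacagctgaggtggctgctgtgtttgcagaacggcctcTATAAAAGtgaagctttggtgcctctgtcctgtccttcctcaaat
The 3 sequences share 4 runs in the same order, 45 bases in all. The longest, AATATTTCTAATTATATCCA (20 bases), begins 166 to 177 bases before the start. On either strand it was found in 5 of the 33469 RefSeq promoters of the same length (0.0149%), namely these 3 and 2 entries of LOC102555216, whose window overlaps that of Myh4 on the opposite strand. The run TCAAATTAT begins 201 to 217 bases before the start and occurs in 0.221% of promoters. TTTTGCCA occurs in 0.813% of promoters and TATAAAAG, which begins 30 to 45 bases before the start, in 1.56%. The shorter motif TATAAAA, contained in that last run, was found on either strand once in Myh1, Myh2, Myh3 and Myh4 and in 5.38% of all promoters, and it was not found in the windows of Myh6, Myh7, Myh7b and Myh8. The E-box letters CANNTG, searched on both strands, matched 3 times in Myh7, 2 times in Myh4 and Myh7b, 1 time in Myh3 and Myh6 and not in the windows of Myh1, Myh2 and Myh8, against 65.5% of all promoters with at least 1 match.

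In control limbs Myh4 and Myh1 together made up 95.7% ± 1.04 (SD, n = 9) of the summed CPM of the 8 genes. Myh4 took a share of 55.3% ± 7.46 and Myh1 of 40.4% ± 8.10, followed by Myh2 at 2.66% ± 0.859 and Myh7 at 1.57% ± 0.531. Per kilobase of gene model, Myh4 reached 10389 ± 1300 CPM, Myh1 7640 ± 1768, Myh2 496 ± 144 and Myh7 299 ± 96.5. The remaining genes were far lower, at 6.49 ± 2.29 CPM per kilobase for Myh6, 4.27 ± 2.55 for Myh3, 3.22 ± 1.14 for Myh7b and 2.71 ± 0.870 for Myh8. In this order Myh1 exceeded Myh2, and Myh7 exceeded Myh6, in each of the 9 limbs with no overlap, while the ranges of every other pair of neighbours overlapped. Myh4 was above Myh1 in 8 of the 9 limbs and Myh2 above Myh7 in 7.

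The 8 genes together accounted for 11.3% ± 0.839 (SD, n = 9) of all CPM in control limbs, with a range of 10.3% to 12.6%. In atrophy they held 4.13%, 10.8% and 5.24% in animals 1, 2 and 3. In recovery they held 9.09%, 10.9% and 10.8%, and in repeated atrophy 7.22%, 5.72% and 6.58%. All repeated atrophy limbs and 2 of the 3 atrophy limbs therefore lay below every control limb, and of the recovery limbs only that of animal 1 did. Sham left limbs held 8.86% to 9.92% and sham right limbs 9.95% to 10.8%. Without TTX, all 3 sham left limbs and sham right limb 3 thus also lay below every control limb.

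**Figure D1:**
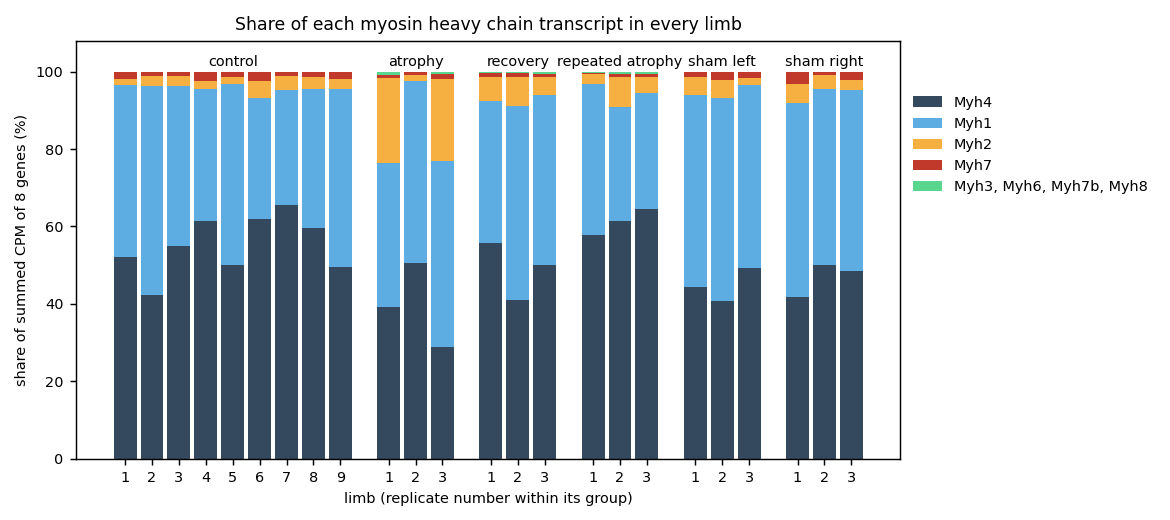
Stacked bars give the share (%) of each gene in the summed CPM of the 8 myosin heavy chain genes, 1 bar per limb, grouped by condition. Myh4 and Myh1 fill 93.2% to 96.7% of every control bar, and the Myh2 segment is widest in atrophy limbs 1 and 3 (21.9% and 21.04%).

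Against control, 3 of the 8 genes passed the threshold in atrophy (22.6% of all rows did), 2 in recovery (7.73% of rows) and 4 in repeated atrophy (34.3% of rows). Those that passed were Myh6, Myh7 and Myh8 in atrophy, Myh3 and Myh8 in recovery, and Myh3, Myh6, Myh7 and Myh8 in repeated atrophy. None of the 3 adult fast genes passed in these comparisons, and Myh2 and Myh4 in atrophy and Myh2 in recovery had an unadjusted p under 0.05. CPM did not overlap the control limbs for 2 genes in atrophy (5.27% of rows), for 3 in recovery (10.4% of rows) and for 6 in repeated atrophy (20.4% of rows). With the animal as a block, so that each left limb is compared within its own animal, 0 of 8 genes passed in atrophy (0% of rows, 5 of 8 at an unadjusted p under 0.05), Myh3 and Myh8 passed in recovery (0.0641% of rows) and the 4 genes named above passed in repeated atrophy (27.1% of rows).

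**Figure D2:**
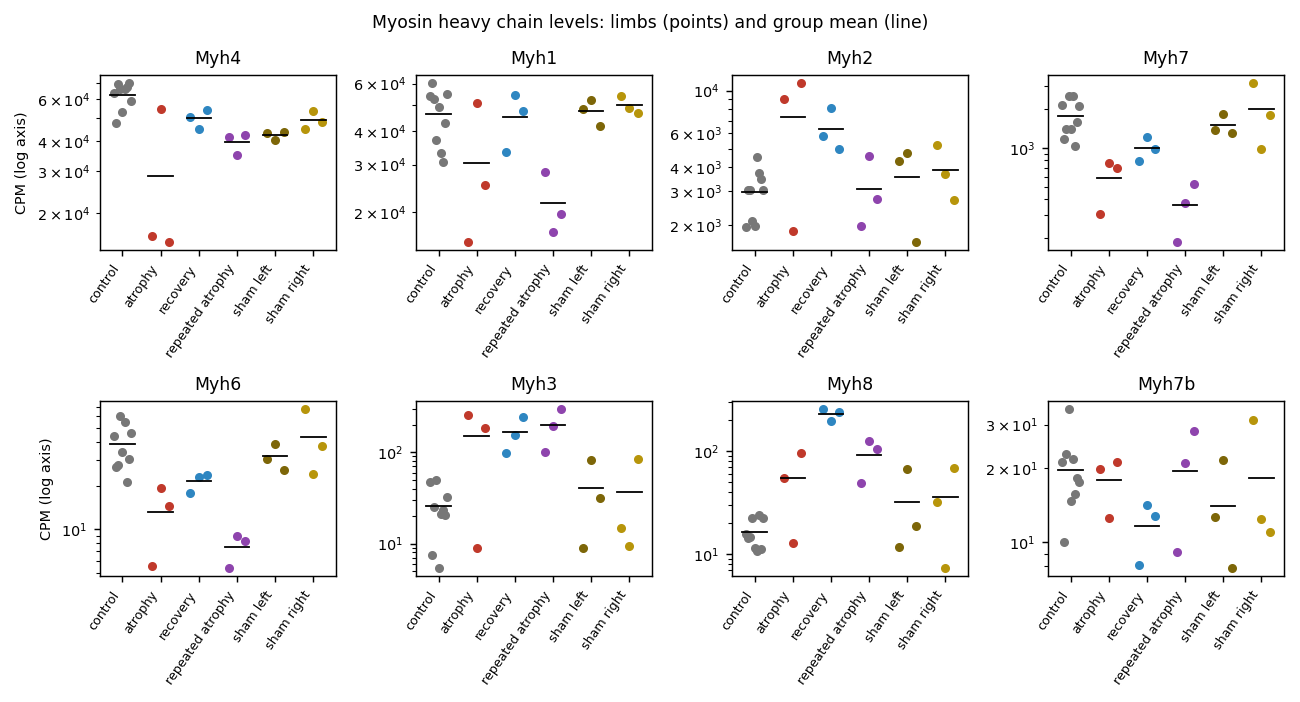
Each panel plots 1 gene in CPM on a log axis, with 1 point per limb and a line at the group mean, for control (9 limbs) and 5 groups of 3. Myh8 is highest in the 3 recovery limbs (197 to 258 CPM), Myh7 is lowest in repeated atrophy (187 to 524 CPM), and 1 atrophy limb sits among the control limbs for Myh1, Myh4, Myh3 and Myh8.

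Myh4, the fastest isoform, ran from 47506 to 70312 CPM in control limbs (median 65849). It was 16112, 54579 and 15162 CPM in the 3 atrophy limbs, 50521, 44788 and 54025 in recovery and 41667, 35100 and 42515 in repeated atrophy. Repeated atrophy limbs all lay below the lowest control limb, whereas atrophy limb 2 did not. Sham left limbs, which had no TTX, also all lay below control at 43264, 40439 and 43632 CPM and overlapped repeated atrophy, and sham right limbs held 44987, 53509 and 48153. The log2 fold change (log2 FC, on log2(CPM + 1)) was −1.39 (SE 0.58, limma adjusted p = 0.088) in atrophy, −0.32 (SE 0.58, adjusted p = 0.78) in recovery and −0.65 (SE 0.58, adjusted p = 0.43) in repeated atrophy. In atrophy Myh4 passed with a pseudocount of 10 (adjusted p = 0.031), among rows with a mean of at least 10 CPM (adjusted p = 0.0035) or without the intensity trend (adjusted p = 0.0074). Leaving out 1 animal at a time gave −2.02 (without animal 2, adjusted p = 0.011) to −1.07.

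As a share, Myh4 was 39.1%, 50.6% and 28.9% in the atrophy limbs against 42.3% to 65.6% in control, a difference of −15.7 percentage points (exact permutation test, two-sided, 220 splits, p = 0.018, the smallest possible being 0.0045). All p-values for shares are unadjusted, and 40 were computed. Leaving out atrophy animal 1 or 3 gave −15.9 points (exact permutation p = 0.089) and −11.2 points (exact permutation p = 0.11). In recovery the shares were 55.6%, 41.03% and 50.1% (−6.34 points, exact permutation p = 0.25, or −1.11 points without recovery animal 2, exact permutation p = 0.91). In repeated atrophy they were 57.7%, 61.4% and 64.6% (5.96 points, exact permutation p = 0.23), so that limbs below every control limb in Myh4 CPM lay within the control range in Myh4 share. Every repeated atrophy limb had a higher Myh4 share than every atrophy and recovery limb. With 3 limbs a side an exact test cannot go below 0.1, and these pairs of groups were not tested.

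Myh1, the other abundant fast isoform, ran from 30573 to 60591 CPM in control limbs (median 49044). It was 15452, 50656 and 25207 CPM in atrophy, 33368, 54630 and 47361 in recovery and 28205, 16821 and 19605 in repeated atrophy. Only the repeated atrophy limbs all lay below control. The log2 FC in repeated atrophy was −1.09 (SE 0.53, 95% interval −2.22 to 0.03, limma adjusted p = 0.12). It passed among rows with a mean of at least 10 CPM (adjusted p = 0.0057) and without the intensity trend (adjusted p = 0.0081). The share of Myh1 in repeated atrophy was 39.1%, 29.4% and 29.8% (−7.68 points against control, exact permutation p = 0.16), and in atrophy it was 37.5%, 46.9% and 48.1% (3.74 points, exact permutation p = 0.49, or 2.40 to 7.58 points with 1 animal left out, the highest without atrophy animal 1).

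Myh2, the oxidative fast isoform, took a larger mean share than in control in each of the 3 groups. Control limbs held 1.61% to 4.28% Myh2. Atrophy limbs held 21.9%, 1.73% and 21.04%, recovery limbs 6.37%, 7.44% and 4.60%, and repeated atrophy limbs 2.74%, 7.99% and 4.17%. The mean was higher than in control by 12.2 points in atrophy (exact permutation p = 0.041), by 3.48 points in recovery (exact permutation p = 0.0045, the smallest these splits can give) and by 2.30 points in repeated atrophy (exact permutation p = 0.036). Only the recovery limbs all lay above control. Sham limbs held 4.45%, 4.79% and 1.85% on the left and 4.87%, 3.44% and 2.71% on the right, which overlapped control, recovery and repeated atrophy. The atrophy difference rested on animals 1 and 3: without 1 of them it was 8.59 or 9.15 points (exact permutation p = 0.20 and 0.18), and without animal 2 it was 18.7 points. The repeated atrophy difference was 0.762 points without animal 2 (exact permutation p = 0.33) and 2.61 points without animal 3 (exact permutation p = 0.089).

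In CPM, Myh2 ran from 1963 to 4544 in control limbs and was 9041 and 11027 in atrophy limbs 1 and 3 but 1866 in limb 2 (log2 FC 0.99, SE 0.43, limma adjusted p = 0.10). It was 0.62 (adjusted p = 0.38) after rescaling on the trimmed mean of log ratios. Leaving out 1 atrophy animal gave 0.59 (animal 1, adjusted p = 0.55), 1.73 (animal 2, adjusted p = 0.0018, with 34.6% of all rows called) and 0.52 (animal 3, adjusted p = 0.50). Recovery limbs held 5789, 8124 and 4962 CPM, all above control (log2 FC 1.10, SE 0.43, adjusted p = 0.12). That change passed with recovery and control limbs alone in the fit (adjusted p = 0.027) and without atrophy animal 2 (log2 FC 1.03, adjusted p = 0.039), and it was 0.66 (adjusted p = 0.43) in the blocked fit. Repeated atrophy limbs held 1981, 4572 and 2744 CPM, and the log2 FC was 0.02 (SE 0.43, 95% interval −0.89 to 0.92, adjusted p = 0.98), which became −0.37 after rescaling on the trimmed mean of log ratios. The larger mean share of Myh2 in repeated atrophy thus stood beside CPM values of which 2 of 3 lay inside the control range, in limbs whose summed myosin CPM lay below control.

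**Figure D3:**
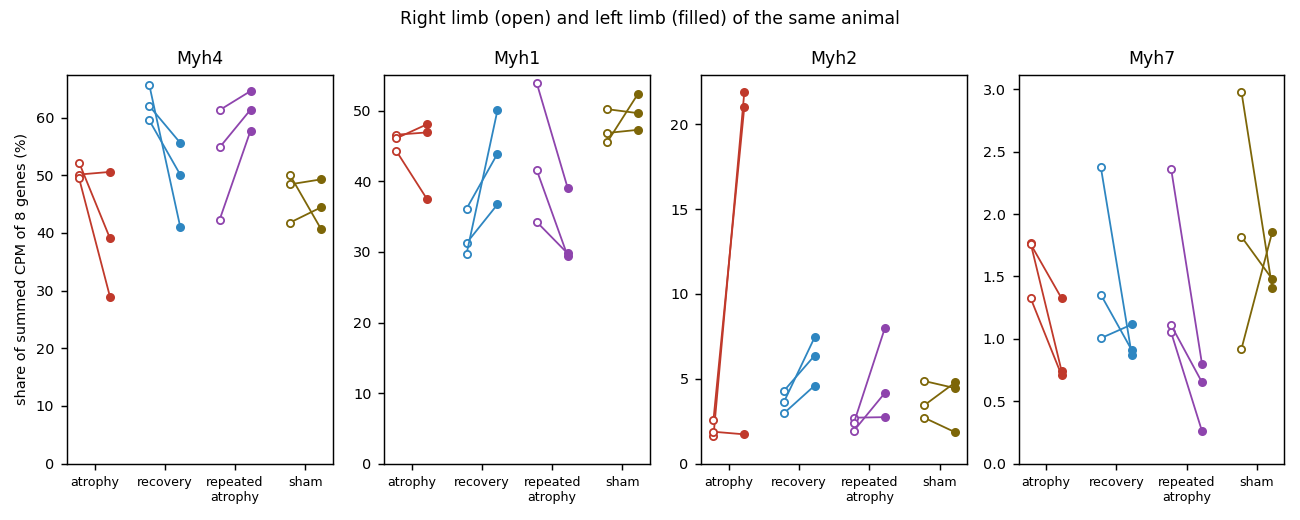
Shares (%) of Myh4, Myh1, Myh2 and Myh7 in the right limb (open) and left limb (filled) of each animal, joined by a line, for 3 animals per condition. Myh1 lines rise in recovery and fall in repeated atrophy in all 3 animals of each, and Myh4 lines do the opposite.

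Within the recovery and repeated atrophy animals, the shares of Myh1 and Myh4 differed between limbs in opposite directions. Shares of 1 total are not independent of each other. The left minus right difference in Myh1 share was 5.48, 20.4 and 7.79 points in the recovery animals and −14.9, −12.2 and −4.47 points in the repeated atrophy animals. In Myh4 share it was −6.39, −24.6 and −9.41 points in recovery and 15.4, 6.53 and 3.30 points in repeated atrophy. In the atrophy animals it was −6.86, 0.328 and 2.00 points in Myh1 and −13.1, 0.456 and −20.5 points in Myh4, opposite in sign in animal 3 alone. All 3 animals of the recovery group, and all 3 of the repeated atrophy group, had the same sign, a contrast that 3 against 3 animals cannot test below 0.1. The right limbs differed as well, and held 59.5% to 65.6% Myh4 in recovery animals, 49.5% to 52.2% in atrophy animals and 42.3% to 61.3% in repeated atrophy animals. Against the pooled control the recovery difference in Myh1 share was 3.14 points (exact permutation p = 0.56), compared with 11.2 points within animals. In log2(CPM + 1) the left minus right difference averaged 0.33 in recovery and −1.22 in repeated atrophy for Myh1, but −0.45 and −0.60 for Myh4, which was lower on the left in all 6 animals. In the sham animals the left limb differed from the right by −0.565, 6.88 and 0.448 points in Myh1 and by 2.63, −9.32 and 0.857 points in Myh4.

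Myh7, the slow isoform, fell in atrophy and in repeated atrophy, the 2 groups sampled at the end of a TTX period (the TTX groups). Control limbs ran from 1036 to 2542 CPM (median 1600). Atrophy limbs held 307, 766 and 695 CPM, recovery limbs 791, 1217 and 981, and repeated atrophy limbs 187, 373 and 524. Both TTX groups lay wholly below control and the recovery limbs overlapped it. The log2 FC was −1.62 (SE 0.34, limma adjusted p = 0.0072) in atrophy, −0.78 (SE 0.34, adjusted p = 0.16) in recovery and −2.34 (SE 0.34, adjusted p = 1.4e-04) in repeated atrophy. The atrophy value was −1.76 with the block on animal (adjusted p = 0.15), −1.17 without atrophy animal 1 (adjusted p = 0.14) and −1.90 without animal 2 (adjusted p = 0.0023), whereas the repeated atrophy value was −2.28 (adjusted p = 0.0047) with the block. From recovery to repeated atrophy Myh7 fell by 1.56 (SE 0.41, adjusted p = 0.011, with 27.2% of rows past the threshold), although with the block 0 of 8 genes passed there (0.0855% of rows, 3 of 8 at an unadjusted p under 0.05).

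The share of Myh7 was 0.259%, 0.651% and 0.796% in repeated atrophy against 1.01% to 2.37% in control (−0.999 points, exact permutation p = 0.014), with no overlap and a lower share in all 3 limbs. In atrophy it was 0.745%, 0.709% and 1.33% (−0.641 points, exact permutation p = 0.068) and in recovery 0.871%, 1.12% and 0.909% (−0.603 points, exact permutation p = 0.068, or −0.748 points without recovery animal 2, exact permutation p = 0.044). In the sham animals Myh7 varied between limbs of 1 animal in both directions, with left and right at 1368 and 3211, 1844 and 981, and 1309 and 1809 CPM.

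Myh6 fell in the same 2 groups as Myh7. Control limbs ran from 21.2 to 60.4 CPM (median 34.2), atrophy limbs held 5.58, 19.3 and 14.4, recovery limbs 17.9, 23.0 and 23.8, and repeated atrophy limbs 5.36, 8.89 and 8.31. The atrophy and repeated atrophy limbs all lay below control. The log2 FC was −1.56 (SE 0.32, limma adjusted p = 0.0067) in atrophy, where the blocked fit gave −1.73 (adjusted p = 0.15) the fit without animal 1 −1.05 (adjusted p = 0.14) and the fit without animal 2 −1.90 (adjusted p = 0.0012), and −2.16 (SE 0.32, adjusted p = 1.5e-04) in repeated atrophy. From recovery to repeated atrophy Myh6 fell by 1.42 (SE 0.39, limma adjusted p = 0.013), or by 1.54 with the block (adjusted p = 0.19). Over 24 limbs Pearson's r of log2 values between Myh6 and Myh7 was 0.983, and 0.970 over the 9 control limbs. Myh6 amounted to 1.59% to 2.86% of Myh7 CPM. The 2 genes have near-identical stretches, and how reads shared between them were assigned is not stated. Myh6 values came out as whole reads, within 0.1 read, in 4 of 24 limbs, against 92.7% of all row values of comparable size, so its level is uncertain. Myh7 values were whole in 0 of the 6 limbs in which this could be resolved, so the same doubt reaches Myh7, and for Myh1, Myh2 and Myh4 it could not be resolved in any limb.

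**Figure D4:**
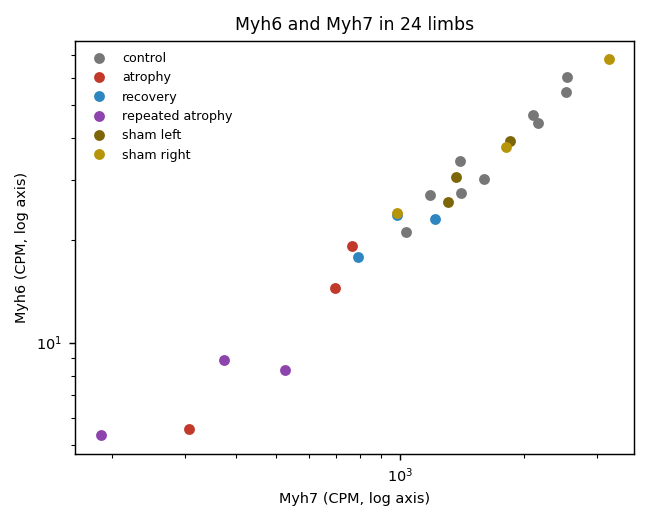
Myh6 against Myh7 in CPM, both on log axes, with 1 point for each of 24 limbs coloured by group. The points fall along 1 line, with repeated atrophy at the low end (5.36 to 8.89 CPM of Myh6) and control and sham limbs at the high end.

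Myh3, the embryonic isoform, ran from 5.36 to 50.3 CPM in control limbs (median 23.5). It reached 258, 8.96 and 183 CPM in atrophy, 97.4, 153 and 245 in recovery and 100.3, 192 and 300 in repeated atrophy. All recovery and repeated atrophy limbs lay above control, and atrophy limb 2 lay among the low control limbs. The log2 FC was 1.81 (SE 0.76, limma adjusted p = 0.092) in atrophy, 2.80 (SE 0.76, adjusted p = 0.033) in recovery and 3.02 (SE 0.76, adjusted p = 0.0055) in repeated atrophy. Leaving out 1 atrophy animal gave 1.09 (animal 1, adjusted p = 0.49), 3.07 (animal 2, adjusted p = 5.5e-04) and 1.27 (animal 3, adjusted p = 0.37). The recovery call was lost without any 1 of the recovery animals (adjusted p = 0.11, 0.11 and 0.14) and without repeated atrophy animal 2 (adjusted p = 0.061), and it held with the block on animal (log2 FC 2.78, adjusted p = 0.025).

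Myh8, the perinatal isoform, peaked in recovery. Control limbs ran from 10.7 to 23.9 CPM (median 14.7), and the recovery limbs held 258, 197 and 240. Atrophy limbs held 54.8, 12.7 and 96.7 CPM and repeated atrophy limbs 48.8, 124 and 105. The recovery limbs lay above every limb of every other group. The log2 FC was 1.34 (SE 0.42, limma adjusted p = 0.029) in atrophy, 3.79 (SE 0.42, adjusted p = 2.1e-04) in recovery and 2.39 (SE 0.42, adjusted p = 4.5e-04) in repeated atrophy. Of these only the atrophy call was lost under rescaling (log2 FC 0.98, adjusted p = 0.096) with the block on animal (1.31, adjusted p = 0.17) and with 12 right limbs as control (1.17, adjusted p = 0.11), and it was also lost without atrophy animal 1 (1.14, adjusted p = 0.23) or 3 (0.79, adjusted p = 0.21) and without recovery animal 1 (1.27, adjusted p = 0.058) or 3 (1.28, adjusted p = 0.055). Without atrophy animal 2 it was 2.09 (adjusted p = 3.9e-04).

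Between treated groups, 1 of the 8 genes, Myh8, passed the threshold from atrophy to recovery (log2 FC 2.46, SE 0.51, limma adjusted p = 0.0080, with 17.9% of rows past the threshold). In the blocked fit it was 2.61 (adjusted p = 0.39, with 0.0143% of rows called). Myh7 in recovery limbs also lay above all atrophy limbs (log2 FC 0.84) without passing. Among rows with a mean of at least 10 CPM or without the intensity trend, 2 of the 8 genes passed. The share of all rows passing is not given for those fits, so that count is not set against it. From recovery to repeated atrophy Myh8 fell by 1.41 (SE 0.51, adjusted p = 0.047), or by 1.62 with the block (adjusted p = 0.17), while the Myh3 log2 FC was 0.22 (SE 0.94, adjusted p = 0.89). The ratio of Myh8 to Myh3 CPM was 2.65, 1.28 and 0.981 in recovery limbs, 0.212, 1.42 and 0.528 in atrophy and 0.487, 0.647 and 0.350 in repeated atrophy. Control limbs ran from 0.340 to 2.13, and overlapped all 3 groups, and sham limbs from 0.603 to 2.16. Repeated atrophy did not differ past the threshold from the first atrophy for any of the 8 genes (0.0356% of rows passed, and 0 of 8 genes had an unadjusted p under 0.05, against 1 of 8, Myh3 at a log2 difference of 1.16, in the blocked fit). The widest of these intervals was that of Myh3, whose log2 difference was 1.21 with a 95% interval of −0.76 to 3.17.

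As shares of the total, the developmental genes stayed small. Myh3 and Myh8 together made 0.0159% to 0.0674% in control limbs, 0.759%, 0.0201% and 0.534% in atrophy, 0.391%, 0.321% and 0.450% in recovery and 0.206%, 0.553% and 0.614% in repeated atrophy. Myh3 had a 14.5 times larger mean share in atrophy than in control (exact permutation p = 0.036, and 0.16 without animal 1 or 3), 7.00 times in recovery and 13.7 times in repeated atrophy (exact permutation p = 0.0045 for both). Myh8 had 7.55 times the control share in atrophy (exact permutation p = 0.027, 0.11 without animal 1 or 3, and 0.055 under quantile normalization), 15.8 times in recovery and 10.2 times in repeated atrophy (exact permutation p = 0.0045 for both). Without atrophy animal 2 the atrophy shares exceeded control by 0.463 points for Myh3 and 0.144 points for Myh8. Myh3 values were whole reads in 5 and Myh8 values in 9 of 24 limbs, and how reads shared with near-identical genes were assigned is not stated, so their levels are uncertain as well.

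Myh7b did not pass in any comparison. Control limbs ran from 9.98 to 34.8 CPM (median 18.3), atrophy limbs held 19.9, 12.5 and 21.1, recovery limbs 8.10, 14.1 and 12.7 and repeated atrophy limbs 9.13, 21.1 and 28.2, so all groups overlapped control. The log2 FC was −0.10 (SE 0.31), −0.67 (SE 0.31, limma adjusted p = 0.19) and −0.07 (SE 0.31) in atrophy, recovery and repeated atrophy. Its values were whole reads in all 24 limbs. With the total of the other genes lower, its share was 0.0482%, 0.0116% and 0.0403% in atrophy against 0.00888% to 0.0323% in control (exact permutation p = 0.045), which was lost on a log2 scale (exact permutation p = 0.13) and without atrophy animal 1 or 3 (exact permutation p = 0.31 and 0.20), and reversed in sign under quantile normalization.

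**Figure D5:**
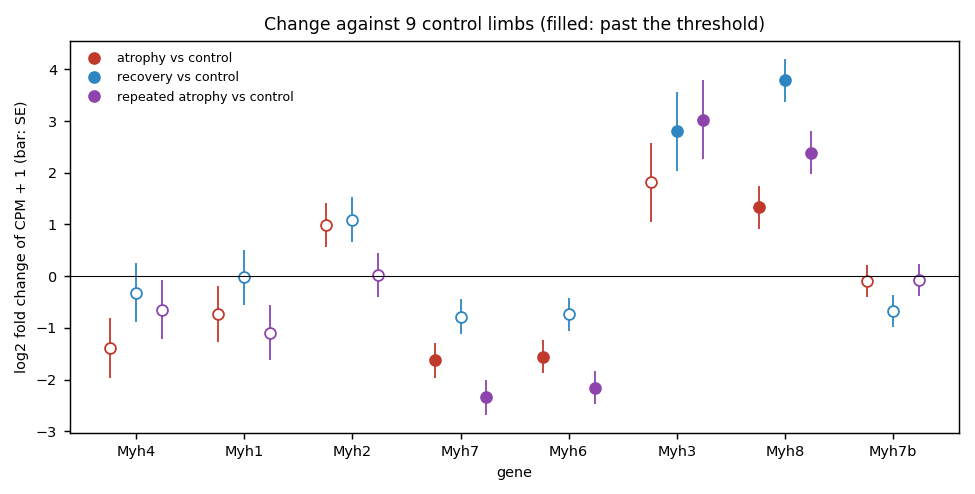
Log2 fold change of CPM + 1 against 9 control limbs for 8 genes, with bars of 1 SE, in atrophy, recovery and repeated atrophy (3 limbs each). Filled points passed the threshold: Myh7 and Myh6 lie below 0 and Myh8 above it in atrophy, Myh3 and Myh8 lie above 0 in recovery, and all 4 genes pass in repeated atrophy.

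The sham limbs gave the background for surgery without TTX. None of the 8 genes passed in sham left against control, in sham right against control or in sham left against sham right within animals (limma, 0% of rows in each, and 0 of 8 genes at an unadjusted p under 0.05). Myh3 and Myh8 were high in 2 single limbs of different animals. Sham left limb 2 held 81.5 and 66.6 CPM and sham right limb 3 held 84.8 and 68.7 CPM, above all control limbs. Myh4 share was lower in sham left limbs (44.4%, 40.7% and 49.3%) than in control (−10.4 points, exact permutation p = 0.050) and was 41.8%, 50.1% and 48.4% in sham right limbs (−8.50 points, exact permutation p = 0.082).

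Of the 6 light chain genes tested, 2 fell in atrophy, 1 rose in recovery, and 1 rose and 2 fell in repeated atrophy. Past the threshold either way were 22.6% of all rows in atrophy, 7.73% in recovery and 34.3% in repeated atrophy, against 2, 1 and 3 of 6 genes here. Myl3 (log2 FC −1.20 in atrophy, −2.43 in repeated atrophy) and Myl2 (−0.85 and −1.21), the slow and cardiac light chains, fell in both TTX groups. Myl4, the embryonic and atrial light chain, rose in recovery (log2 FC 1.77, SE 0.20, limma adjusted p = 2.1e-04) and repeated atrophy (0.79). The median log2 FC of the list was −0.29, 0.65 and −0.22 in atrophy, recovery and repeated atrophy beside 0.22, 0.02 and 0.20 over all rows. Of 7 thick filament and M-band genes, 2 rose and 2 fell in atrophy, 0 of 7 passed in recovery (limma, 0 also at an unadjusted p under 0.05), and 2 rose and 3 fell in repeated atrophy (median log2 FC −0.14, 0.10 and −0.41). Myom3, an M-band protein, rose (log2 FC 2.08 and 3.60 in the TTX groups), as did Mybph (1.52 and 2.26), a myosin binding protein H, while Mybpc2, the fast myosin binding protein C, fell (−1.70 and −2.04).

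Of 8 fast fibre partners, 2 fell in atrophy (22.6% of all rows passed either way) and 4 in repeated atrophy (34.3% of all rows). In recovery 0 passed (limma, 1 at an unadjusted p under 0.05, with 7.73% of all rows past the threshold). The list's median log2 FC was −0.92, 0.07 and −0.79 in atrophy, recovery and repeated atrophy. Actn3, the fast fibre actinin, fell by 2.11 and 2.06 on the log2 scale and Myoz1, a fast fibre Z-disc protein, by 1.54 and 1.83. In repeated atrophy Atp2a1, the fast calcium pump of the sarcoplasmic reticulum, fell by 1.49. Of 8 slow fibre partners 1 rose and 1 fell in atrophy, 1 rose in recovery and 1 fell in repeated atrophy, beside those same shares of all rows (median log2 FC 0.20, −0.13 and −0.21). Tpm3, slow tropomyosin, fell by 1.14 and 1.67, and Casq2, the cardiac and slow calsequestrin, rose in recovery (log2 FC 1.57). Ankrd2, a stretch-responsive ankyrin repeat gene, rose in atrophy (1.88).

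Among 12 tested regulators of fibre type, 3 rose and 1 fell in atrophy (22.6% of all rows passed), 0 passed in recovery (7.73% of all rows; limma, 1 gene at an unadjusted p under 0.05) and 2 rose and 5 fell in repeated atrophy (34.3% of all rows), with a median log2 FC of −0.11, −0.12 and −0.43. Nfatc1, a calcineurin-dependent factor of slow fibres, fell by 0.67 and 1.05 on the log2 scale. Ppargc1a, a coactivator of oxidative metabolism, fell by 1.17 and Maf by 0.94 in repeated atrophy, and Six4 (0.78) and Sox6 (0.68), which act in the fast programme, rose in atrophy. Of 10 genes of immature or silenced fibres, 8 rose in atrophy, 1 in recovery and 9 in repeated atrophy, beside those same shares of all rows, with a median log2 FC of 2.78, 0.90 and 3.46. Myog, a myogenic factor, rose by 3.01 in atrophy and Tnnt2, cardiac troponin T, by 2.95, whereas Chrna1 and Chrnd, acetylcholine receptor subunits, rose by 4.49 and 4.27 in repeated atrophy. Actc1, cardiac actin, was the 1 gene of the list that rose in recovery (log2 FC 3.88, adjusted p = 0.0015).

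Of 7 genes for myosin folding and turnover, 3 rose in atrophy (22.6% of all rows passed), 1 rose and 1 fell in recovery (7.73% of all rows) and 4 rose in repeated atrophy (34.3% of all rows), with a median log2 FC of 0.48, −0.12 and 0.70. Trim63, the MuRF1 ubiquitin ligase that marks myosin heavy chain for degradation, rose by 1.93 in atrophy, Hsp90aa1, a chaperone, by 1.70 and 1.71, and Trim55 by 0.66, 0.75 and 1.10 in atrophy, recovery and repeated atrophy. Trim54 fell by 0.77 in recovery and rose by 0.70 in repeated atrophy. Of 4 other heavy chain genes tested (median log2 FC 0.63, −0.12 and 0.73), 0 passed in atrophy (limma, 2 at an unadjusted p under 0.05). Myh14, a nonmuscle isoform, fell in recovery (log2 FC −1.53) and Myh10, another, rose in repeated atrophy (0.93). Some of these calls on partner genes depended on scaling. Under all 3 rescalings (trimmed mean, median of ratios and quantile) those of Trim63, Trim55, Six4, Sox6, Ankrd2 and Myom3 in atrophy were lost, and those of Myh10 and Myl4 in repeated atrophy were too, with no change of sign. In repeated atrophy that of Trim54 was also lost under the trimmed mean (log2 FC 0.32, adjusted p = 0.15) and the median of ratios (0.31, adjusted p = 0.17), and that of Atp2a1 under quantile normalization (−0.85, adjusted p = 0.23). In the blocked fit 0% of all rows passed in atrophy and 0 of the 18 named calls held, with no change of sign (Tnnt2 2.44, Hsp90aa1 1.33 and Ankrd2 2.09 on the log2 scale). There, 1 of 6 (Actc1) held in recovery and 17 of 20 held in repeated atrophy, where Atp2a1, Trim54 and Ppargc1a were lost.

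The genes whose log2 CPM most resembled each member were named by Pearson's r over 24 limbs among rows other than the 8 members with a mean of at least 10 CPM, as a description, since limbs share treatment and libraries. For Myh4 these were Ckm (r = 0.840), Actn3 (0.837) and Nr4a1 (0.795), and for Myh1 St3gal6 (0.873), Ppp1r3c (0.861) and Pygm (0.845). For Myh2 they were Ndufv3 (0.827), Ifi30 (0.794) and Casq2 (0.742). Myh7 was closest to Thra (0.931), Kalrn (0.921) and Nfatc1 (0.911), and Myh6 to Kalrn (0.926), Thra (0.902) and Wipf3 (0.895). Myh3 was closest to Bgn (0.928), Arpp21 (0.883) and Tnnt2 (0.868), Myh8 to S100a4 (0.892), Igf2 (0.868) and Ccdc80 (0.858), and Myh7b to Man2c1 (0.855) and Man2a2 (0.831).

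Markers of other cells moved beside some of these results. Fibroblast markers (3 of 3 genes present) summed to 521 to 856 CPM in recovery against 138 to 352 in control. Of these, 2 of 3 passed the threshold there (7.73% of all rows did), in the same limbs in which Myh8 peaked. Macrophage and leukocyte markers (4 of 4) summed to 48.8 to 99.6 CPM in recovery against 13.99 to 59.9 in control, with 2 of 4 passing. Muscle stem cell markers (2 of 2) summed to 33.1 to 61.9 CPM in repeated atrophy, 7.38 to 86.1 in atrophy and 7.82 to 20.8 in recovery, against 1.98 to 11.7 in control. Of these, 1 of 2 passed in each of the TTX groups (22.6% of all rows passed in atrophy and 34.3% in repeated atrophy). The sum was mostly Myf5 (mean 46.3 CPM in atrophy and 4.64 in control), with Pax7 at 0.23 and 0.51 CPM. Without TTX, sham limbs reached sums of 68.7 CPM on the left and 52.2 on the right. Macrophage and leukocyte sums in sham left limbs (34.0 to 63.3 CPM) overlapped those in recovery. Schwann cell, endothelial, fat and smooth muscle markers passed for 0 of their 11 genes, beside those same shares of all rows (limma, 2 at an unadjusted p under 0.05, both in recovery). No defining marker was at 0 in every limb. Their part in the myosin results was not tested.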

How the data were processed

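The table deposited by the authors holds CPM for 27 libraries. The 24 columns that match samples were used, and the 3 that match no sample were not. Per the labels and the study's methods, mRNA libraries were made with a directional kit, rRNA and tRNA reads were removed with Bowtie2 2.2.5, and the rest were aligned to rn7 with STAR and handled in Partek Flow. Neither the annotation nor the read assignment is given in the sources used here. Median of ratios scaling is named, whereas each deposited column sums to 1000000. Model lengths came with the table. Of 14271 rows, 28 exact duplicates were dropped.

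Low values were mostly whole multiples of 1 step (89.8% to 91.5% within 0.1 read), which gave the depth. Reads were not recovered, so no count test was run. Rows above 0 in at least 3 limbs were fitted on log2(CPM + 1) with limma 3.58.1 (R 4.3.3, intensity trend, 4 groups in 1 fit, Benjamini-Hochberg adjustment). This scale understates the change of low genes. Sham limbs were fitted apart. Each isoform's share of the summed CPM of the 8 genes was compared with control by an exact two-sided permutation test of means. The fit was run on simulated data in which 200 genes changed in atrophy. It recovered 64% of them, and 9 of its 137 calls were false. The simulated limbs had a common spread and no animal effect, unlike the limbs here. The labels place both limbs in 1 animal, and this pairing defines the block. Across rows, departures from the group mean in the 2 limbs of an animal correlated at r = −0.33 to 0.90 (median 0.24, 12 animals).

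The members, lists and tests were chosen with earlier results of these data known. Named were the members, up to 3 genes per list and comparison with the largest change among those past the threshold, and the 3 rows most like each member. Some genes that this rule names are not reported here. Promoter sequences are from RefSeq on GRCr8, and all 8 members matched. Alternatives were other pseudocounts, rescalings, filters, controls, blocks and denominators, and leaving out each animal. Tests were run in Python 3.11.15 with scipy 1.17.1. Replicates of a group are separate animals, but 3 of the 9 control limbs share their animals with each treated group, which the fit without the block and the share tests treat as independent.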

Additional observations from a re-analysis of the deposited data

Results flagged for a closer look

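Within animals, the left minus right difference in Myh1 share averaged 11.2 points in recovery and −10.5 points in repeated atrophy, positive in all 3 recovery animals and negative in all 3 repeated atrophy animals, and on the log2(CPM + 1) scale it averaged 0.33 and −1.22. The Myh4 share differed by −13.5 points in recovery and 8.42 points in repeated atrophy, and the Myh7b share by −0.00585 and 0.0110 points, negative in all 3 recovery animals and positive in all 3 repeated atrophy animals for both genes. On the log2(CPM + 1) scale Myh4 averaged −0.45 and −0.60 and Myh7b −0.65 and −0.17. Both genes were lower on the left in all 6 animals, so their opposite signs were in shares only. The Myh1 log2 difference between the groups was −1.55 in the blocked limma fit (SE 0.88, adjusted p = 0.36). The differences in shares were not tested, since 3 against 3 animals cannot give an exact permutation p below 0.1.

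In 1 control limb, the right limb of a repeated atrophy animal, the Myh7b share was 0.0323%, far from the other 8 control limbs. Over the 16 sets of control values screened, chance flags about 1 in 20.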

How the results depend on the processing

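Of 1184 recomputed values over 62 results, 1085 were counted as holding. For fold changes and shares this meant the sign and the call. A count of members was taken to hold while it stayed within a set ratio of the main count, so small changes in those counts are among the 1085. The lowest value of a member was 5.36 CPM, and the inferred depth was at least 18.9 in units of 1000000 reads. With 3 limbs per treated group, 1 animal can decide a call. Labels pair the limbs by animal. With the animal as a fixed replicate block, 0 members passed in atrophy, 0 in recovery against atrophy and 0 in repeated atrophy against recovery, and the pairing moved the recovery difference in Myh1 share to 11.2 points. Among rows with a mean of at least 10 CPM, and without the trend, 2 members passed in recovery against atrophy (the share of all rows is not given for these fits). Apart from these counts and the calls given with the block in the report, the pairing ended no call among the 8 genes. For each change given here the cause was not tested.

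Leaving out 1 animal at a time, the members past the threshold ran from 0 to 6 in atrophy (0 without animal 1, 6 without animal 2), from 1 to 3 in recovery (1 without any 1 of the recovery animals or without repeated atrophy animal 2) and from 1 to 4 in repeated atrophy against recovery (1 without recovery animal 2). The share of all rows past the threshold in atrophy also moved, from 22.6% with all animals to 34.6% without atrophy animal 2. That share is not given for the other fits, so these counts are not set against it. Share differences ran from −1.45 to 5.41 points for Myh1 in recovery, from 8.59 to 18.7 for Myh2 in atrophy, from 0.762 to 3.42 for Myh2 in repeated atrophy, from −21.9 to −11.2 for Myh4 in atrophy, from −8.85 to −1.11 for Myh4 in recovery and from −0.748 to −0.455 for Myh7 in recovery. Log2 fold changes that crossed 0 ran from −0.24 to 0.087 for Myh7b in atrophy, −0.25 to 0.13 for Myh1 in recovery, −0.30 to 0.31 for Myh2 and −0.29 to 0.26 for Myh7b in repeated atrophy. Between repeated atrophy and atrophy they ran from −0.76 to 0.092 for Myh1, −0.28 to 2.08 for Myh3 and −0.30 to 0.46 for Myh7b.

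Under quantile normalization the Myh1 log2 fold change was 0.33 in atrophy and 0.25 in recovery, Myh4 in repeated atrophy was 0.039, the Myh2 share in repeated atrophy differed by 0.372 points (exact permutation p = 0.63), Myh4 in atrophy by −12.7 (exact permutation p = 0.059), Myh8 in atrophy by 0.0264 (exact permutation p = 0.055), Myh7 by −1.42 in atrophy and −0.960 in recovery, and Myh7b by −0.00887 and −0.00587 in atrophy and repeated atrophy. The Myh7 log2 share differed by −0.75 in atrophy and −0.64 in recovery, with exact permutation p = 0.050 and 0.045. The Myh1 recovery fold change was 0.33 with the fixed and 0.015 with the random block, and Myh7b in repeated atrophy against atrophy was −0.15 with the fixed block. Myh2 in repeated atrophy was −0.37 under both a trimmed mean and a median of ratios and −0.075 with 12 right limbs as control. Tests on counts were not run, since the values are CPM.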
